A study of Mus musculus with 3 samples.

Results

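Most animal microRNAs (miRNAs) are cut out of a long transcript by the nuclear enzyme Drosha and then freed from their hairpin by the cytoplasmic enzyme Dicer. A few take shortcuts. Capped hairpins such as those of miR-320 and miR-484 start at the first transcribed base, so that no cut by Drosha is needed before Dicer acts. Mirtrons such as miR-877 and miR-702 are short introns, and the spliceosome takes the place of Drosha. The precursor of miR-451a is released by Drosha but is too short for Dicer, and the slicing protein AGO2 matures it; this miRNA is best known from red blood cell precursors. These 5 hairpins give 8 mature miRNAs out of 1915 listed, all chosen by name and with earlier results of these data known. No library lacked Drosha or Dicer, so the route of each miRNA is background here and was not measured.

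The miRNAs were sequenced from exosomes, small vesicles that cells release, of bone-marrow-derived macrophages from adult wild-type C57BL/6 mice. The marrow cells were given M-CSF, the growth factor that turns them into macrophages, for 24 h and then kept in medium with exosome-depleted serum, from which the vesicles were pelleted after 72 h. There was 1 group of 3 libraries, numbered 1 to 3 here, titled CHMP1 to CHMP3; the abbreviation is left unexplained in the labels. Nothing in the labels says that separate cultures or animals were used, so SDs cover only the spread between these 3 libraries, and that spread may be technical. No p-value here reaches beyond these 3 libraries, and those of the chi-square test below set their differences against counting error alone.

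Depth was 3008995, 2489984 and 3208617 counts on miRNAs, and levels are given as counts per 1000000 of these (CPM). A count of 0 allows up to 3 counts, or 0.997, 1.20 and 0.935 CPM in libraries 1, 2 and 3; limits and intervals cover counting error only. All 6 macrophage miRNAs looked up (miR-21a-5p, miR-146a-5p, miR-142a-3p, miR-142a-5p, miR-223-3p and miR-155-5p) reached 10 counts in each library. Of the 6, 5 were lowest in library 1, against 27.5% of the 353 miRNAs tested between libraries below. Their summed level was 71162, 344914 and 300101 CPM in libraries 1, 2 and 3. That sum followed miR-21a-5p, at 37316, 305278 and 261488 CPM. MiR-142a-3p (42.9, 1364 and 819 CPM) and miR-155-5p (74.8, 2388 and 829 CPM) were also far lower in library 1, and miR-142a-5p less so. MiR-146a-5p changed little, at 33400.9, 35012.3 and 36542.5 CPM, and miR-223-3p was lowest in library 3. Library 1 stood apart from the others, so the results below are also given without it.

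RefSeq (GRCm38.p6) held the mature sequences of 6 of the 8 miRNAs. They are shown 5′ to 3′ because the seed, bases 2 to 8 in capitals, sets which messages a miRNA can pair with.
mmu-miR-484: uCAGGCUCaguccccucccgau
mmu-miR-877-5p: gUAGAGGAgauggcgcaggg
mmu-miR-877-3p: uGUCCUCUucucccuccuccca
mmu-miR-702-5p: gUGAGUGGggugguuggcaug
mmu-miR-702-3p: uGCCCACCcuuuaccccgcucc
mmu-miR-451a: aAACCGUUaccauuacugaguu
The 6 seeds all differed from one another. In the RefSeq table the seed of miR-702-5p was shared with 1 other miRNA, miR-3102-5p, which had 0 counts in every library, and the other seeds were shared with none.

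The genes lie in different surroundings in the GRCm38 annotation (GENCODE). The miR-320 hairpin is on the plus strand at chr14:70443510-70443591, outside other genes, and 62 bases separate it from Polr3d, which encodes a subunit of RNA polymerase III and runs the opposite way. The miR-484 hairpin, at chr16:14159626-14159692 on the plus strand, lies opposite Marf1, with 19 of its bases facing an exon of that gene and the rest an intron. Its mature sequence takes bases 5 to 26 of the 67 in the hairpin, on the 5′ side.

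For the mirtrons and miR-451a the hairpins themselves are printed, with the mature sequences in capitals, since the capitals show where each miRNA lies in its hairpin.
miR-877 hairpin: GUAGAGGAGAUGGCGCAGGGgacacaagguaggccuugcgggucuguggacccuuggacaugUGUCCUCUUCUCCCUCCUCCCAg
miR-702 hairpin: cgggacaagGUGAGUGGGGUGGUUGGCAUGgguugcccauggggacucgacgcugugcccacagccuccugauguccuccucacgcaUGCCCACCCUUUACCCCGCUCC
miR-451a hairpin: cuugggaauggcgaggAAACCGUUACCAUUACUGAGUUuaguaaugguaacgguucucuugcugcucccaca
The miR-877 hairpin, on the minus strand at chr17:35960730-35960814, coincides base for base with an intron of Abcf1, an ATP-binding protein of translation initiation. It starts with GU and ends with AG, the letters of a splice donor and acceptor, and miR-877-5p takes its first 20 bases. The miR-702 hairpin, on the plus strand at chr5:136991433-136991541, begins with 9 bases of a Plod3 exon (Plod3 is a collagen-modifying enzyme). The first base of miR-702-5p is the first base of the following intron, which runs from 136991442 to 136991543 and so ends 2 bases beyond miR-702-3p. The miR-451a hairpin is on the plus strand at chr11:78073170-78073241. In the predicted fold (RNAfold) miR-451a takes bases 17 to 38 of the 72 and holds the whole terminal loop, bases 35 to 38. Of 1559 mature sequences on hairpins with a single predicted loop, 2 held the whole loop, and the other one was miR-468-5p.

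The capped hairpins supplied nearly all counts of these miRNAs. Together the 8 took 0.740% of miRNA counts in library 1 (95% Wilson interval 0.730 to 0.749), 0.122% in library 2 (0.117 to 0.126) and 0.227% in library 3 (0.222 to 0.232). The mean was 0.363% ± 0.331 (SD, n = 3), and 0.174% without library 1. Within these sums, miR-320 and miR-484 made up 98.6%, 97.2% and 98.7% in libraries 1, 2 and 3. The mirtrons took 0.00346% ± 0.00296 of miRNA counts (SD, n = 3), or 0.00175% without library 1, and miR-451a took 0.00208% ± 0.00117 (SD, n = 3). Of the 8 miRNAs, 7 had a count in at least 1 library, as had 886 of the 1915 listed. A summed count of at least 30 was reached by 5 of the 8, and by 353 of the 1915. The median of the 8 mean levels was 15.8 CPM, whereas the median over all listed miRNAs was 0 and that over the 886 with a count was 1.46 CPM.

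**Figure D1:**
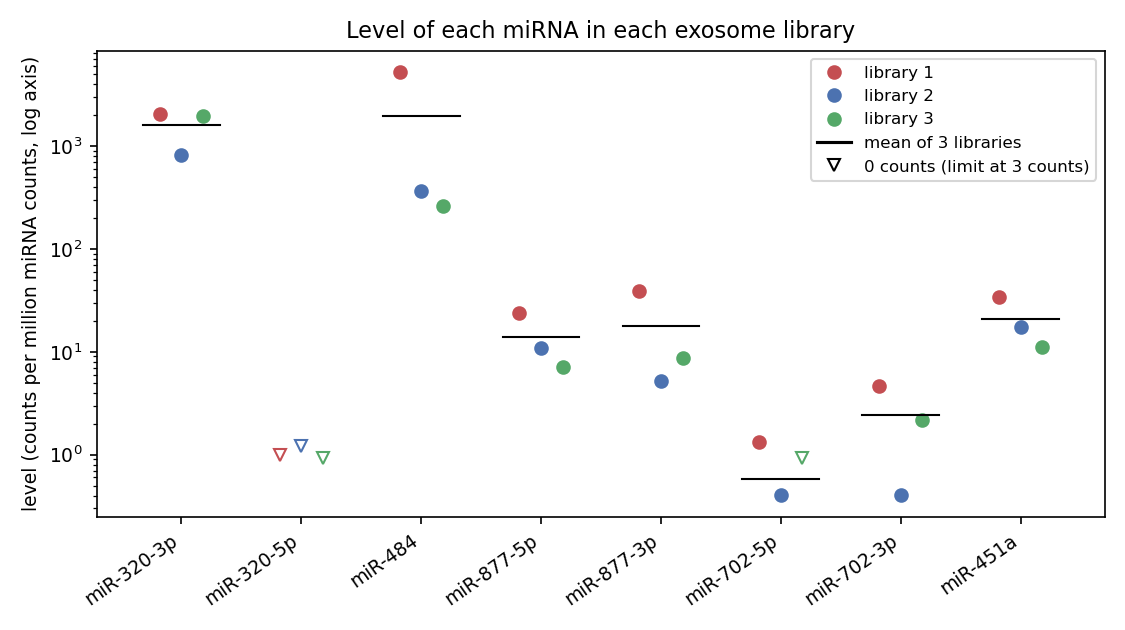
Level of the 8 miRNAs in CPM (log axis), with 1 point per library, a bar at the mean of the 3 libraries, and open triangles at the limit of 3 counts where a count was 0. The miR-484 point of library 1, at 5248 CPM, stands far above those of libraries 2 and 3, and miR-320-5p had no count in any library.

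Among the capped hairpins, miR-320-3p (mmu-miR-320-3p in the tables) was abundant in every library. It had 6160, 2039 and 6344 counts in libraries 1, 2 and 3, which is 2047, 819 and 1977 CPM. Library 2 was the low one, and the ranks among all miRNAs were 49, 66 and 41. The mean was 1614 CPM ± 690 (SD, n = 3), and 1398 CPM without library 1.

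The partner arm, mmu-miR-320-5p, had 0 counts in all 3 libraries. At 3 counts allowed per library, miR-320-3p was at least 2053-fold, 680-fold and 2115-fold higher than miR-320-5p in libraries 1, 2 and 3. Earlier work describes the cap on this precursor as hindering use of its 5′ arm, and its part in these counts was not tested. The product of the other capped hairpin, miR-484, lies on the 5′ side. In the arm test, edgeR's quasi-likelihood test on all 157 precursors with both arms listed and enough counts, the 3p arm of miR-320 was higher at an adjusted p of 2.89e-17. In that test the 3p arm was higher for 38.9% of precursors and the 5p arm for 41.4%. An arm at 0 in every library was seen for 12 precursors on the 5p side and 12 on the 3p side, and among all of these miR-320 had the most counts on its other arm. Next to it, miR-101b had 11702 counts on its 3p arm and 0 on its 5p arm.

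The other capped hairpin product, mmu-miR-484, differed most between libraries among the members with a count in each. It had 15790, 904 and 846 counts, which is 5248, 363 and 264 CPM in libraries 1, 2 and 3, at ranks 30, 89 and 90. Library 1 was 14.5-fold above library 2 and 19.9-fold above library 3, whereas libraries 2 and 3 lay close together. The mean of 1958 CPM ± 2849 (SD, n = 3) therefore lies far from the value of every library, and without library 1 it was 313 CPM ± 70.3 (SD, n = 2).

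The order of the 2 abundant miRNAs thus turned over. For each count of miR-320-3p there were 2.56 counts of miR-484 in library 1 (exact 95% counting interval 2.49 to 2.64), 0.443 in library 2 (0.410 to 0.480) and 0.133 in library 3 (0.124 to 0.143). None of the 3 intervals overlapped, and the ratio was 19.2-fold higher in library 1 than in library 3. A ratio within a library does not depend on how libraries are scaled to each other. By the mean miR-484 stood above miR-320-3p, but this order held in 1 of the 3 libraries.

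**Figure D2:**
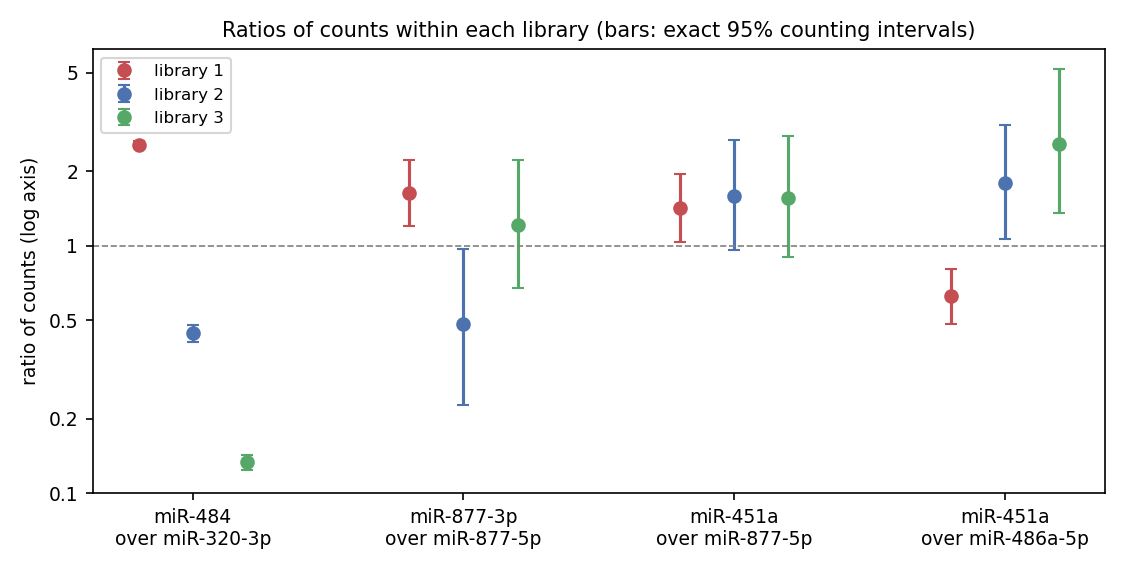
Ratio of the counts of 2 miRNAs within a library (log axis), for 4 pairs and 3 libraries, with exact 95% counting intervals as bars and a dashed line at equal counts. The ratio of miR-484 to miR-320-3p ran from 2.56 in library 1 to 0.133 in library 3, while that of miR-451a to miR-877-5p lay between 1.42 and 1.59.

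The mirtron miR-877 was present at a low level on both arms. Its 5p arm had 72, 27 and 23 counts, or 23.9, 10.8 and 7.17 CPM in libraries 1, 2 and 3. The 5p mean was 13.98 CPM ± 8.81 (SD, n = 3), going down to 9.01 if library 1 is left out. The 3p arm had 117, 13 and 28 counts, or 38.9, 5.22 and 8.73 CPM. The 3p mean was 17.6 CPM ± 18.5 (SD, n = 3), going down to 6.97 if library 1 is left out. Both arms were highest in library 1.

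Neither arm of miR-877 dominated throughout. The 3p arm had 1.63 counts per count of the 5p arm in library 1 (exact 95% counting interval 1.20 to 2.21), 0.481 in library 2 (0.228 to 0.966) and 1.22 in library 3 (0.676 to 2.21). So the 3p arm led in library 1, the 5p arm led in library 2, and the interval of library 3 included equal counts. Over the 3 libraries edgeR's quasi-likelihood test gave a log2 ratio of 3p to 5p of 0.0096 ± 1.14 (SE), with a 95% interval from -2.23 to 2.25 and an adjusted p of 0.993. That interval leaves room for either arm to be more than 4-fold higher, so equal use of the arms was not shown.

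The mirtron miR-702 was near the limit of detection. Its 3p arm had 14, 1 and 7 counts in libraries 1, 2 and 3, or 4.65, 0.402 and 2.18 CPM, and its 5p arm had 4, 1 and 0 counts. By the mean the 3p arm was at 2.41 CPM and the 5p arm at 0.577 CPM, and without library 1 at 1.29 and 0.201 CPM. Library 1 had 3.50 counts of 3p per count of 5p (exact 95% counting interval 1.10 to 14.6), and in library 3, with 7 counts against 0, the lower limit of this ratio was 1.44. Library 2, with 1 count on each arm, could not separate them. The precursor's 27 counts were below the minimum of 60 for the arm test. With a minimum of 20, edgeR's quasi-likelihood test gave a log2 ratio of 3p to 5p of 2.08, with a 95% interval from -0.66 to 4.82 and an adjusted p of 0.158, so the arms were not called different over the 3 libraries.

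The other names looked up as reported mirtrons were at or near 0, with 1 exception, and this list does not cover all hairpins that fill an intron. Of 10 mature names from miR-1224, miR-1981, miR-1982 and miR-3102, 5 had a count in any library and only miR-1981-5p had at least 10 in each. MiR-1981-5p had 567, 328 and 1341 counts in libraries 1, 2 and 3, or 188, 132 and 418 CPM. It was therefore above both miR-877 arms in every library, at 7.88, 12.1 and 58.3 counts per count of miR-877-5p. The 5p arm of miR-1981 had 94.5, 36.4 and 268 times the counts of its 3p arm in libraries 1, 2 and 3. In edgeR's quasi-likelihood test 5p was 93.7 times 3p (log2 ratio of 3p to 5p -6.55 ± 1.16 SE, adjusted p = 1.01e-07), and 155 times without library 2 and 57.2 times without library 3. Whether the arm ratios of miR-1981 and miR-877 differ was not tested. Among 4 miRNAs in snoRNA or tRNA genes, miR-664-5p, miR-664-3p and miR-1983 reached 10 counts in each library, and miR-1291 had 0, 35 and 38 counts.

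The Dicer-independent mmu-miR-451a had 102, 43 and 36 counts in libraries 1, 2 and 3, or 33.9, 17.3 and 11.2 CPM. Its mean was 20.8 CPM ± 11.7 (SD, n = 3), and 14.2 CPM without library 1. Library 1 was 1.96-fold above library 2 and 3.02-fold above library 3. MiR-451a ranked 188, 208 and 230 among all miRNAs, and was below miR-320-3p by 60.4-fold, 47.4-fold and 176-fold. Its level followed that of the mirtron arm miR-877-5p, with 1.42, 1.59 and 1.57 counts of miR-451a per count of miR-877-5p, and the 3 exact counting intervals all overlapped. This pair was singled out after its values were seen.

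Other miRNAs of red blood cells did not all keep a fixed proportion to miR-451a. The miR-144 hairpin lies on the same strand 99 bases from that of miR-451a and is cut by Drosha and Dicer, yet miR-144-3p had only 5, 2 and 0 counts. The counts of miR-451a were 20.4 times those of miR-144-3p in library 1 (exact 95% counting interval 8.46 to 64.2) and 21.5 times in library 2 (5.60 to 183). MiR-486a-5p, which carries the same counts as miR-486b-5p, had 163, 24 and 14 counts. For each of these there were 0.626, 1.79 and 2.57 counts of miR-451a in libraries 1, 2 and 3, with the interval of library 1 (0.484 to 0.806) below those of library 2 (1.06 to 3.09) and library 3 (1.35 to 5.16). The 8 names of the red-cell list, which includes miR-451a, summed to 145, 37.8 and 19.9 CPM, and the opposite-strand miR-451b and both miR-486 3p arms had 0 counts. The platelet and neutrophil list, made up of miR-126a-3p, miR-150-5p and miR-223-5p, summed to 56.8, 68.7 and 51.7 CPM. Almost all of this came from miR-126a-3p and miR-223-5p, since miR-150-5p had 0, 0 and 1 counts. MiR-223-5p is the partner arm of miR-223-3p, looked up above as a macrophage miRNA, so this sum is not particular to platelets and neutrophils. In these vesicle pellets less of a cell type and less RNA per cell cannot be told apart, and the part of red-cell RNA in the miR-451a level was not tested.

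By the mean the order was miR-484, miR-320-3p, miR-451a, miR-877-3p, miR-877-5p, miR-702-3p and miR-702-5p. The ranges of neighbours in this order overlapped except between miR-320-3p and miR-451a and between miR-877-5p and miR-702-3p, where the higher one stayed above in all 3 libraries.

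Whether libraries differed by more than counting error was examined with a chi-square test of the 3 counts of a miRNA against the totals. It was run on the 353 miRNAs whose counts summed to 30 or more, with p-values adjusted over them by the Benjamini-Hochberg method. The test compares these libraries, not conditions. It called 90.1% of all miRNAs tested, and all 5 of the miRNAs treated here that were tested. The adjusted p was 7.39e-08 for miR-877-5p, 2.92e-24 for miR-877-3p and 2.55e-09 for miR-451a, and for miR-320-3p and miR-484 it was too small to be represented, at chi-square values of 1518 and 23869. These values depend on the scaling. With TMM factors the chi-square adjusted p was 0.0257 for miR-877-5p, 5.61e-11 for miR-877-3p and 0.0278 for miR-451a. With DESeq2 size factors it was 0.0318 for miR-877-5p and 0.0351 for miR-451a. Without library 1 the test called 61.5% of 288 miRNAs, and 2 of these 5 remained called, miR-320-3p and miR-484. Between libraries 2 and 3 the adjusted p was 0.194 for miR-877-5p, 0.169 for miR-877-3p and 0.0820 for miR-451a. Without library 2 the adjusted p of miR-320-3p was 0.0593.

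All 5 tested miRNAs were highest in library 1, where 60.3% of all tested miRNAs had their highest level. On the miRNA total, miR-484, miR-877-3p and miR-877-5p of the 5 were over 2-fold above both other libraries, against 38.2% of all tested. The lead of library 1 was small for miR-320-3p, at 1.04-fold over library 3, and it turned with the scaling. TMM factors shift all log2 ratios of library 1 alike, by -0.61 against library 2 and by -0.86 against library 3. With them the log2 ratio of library 1 to library 3 for miR-320-3p went from 0.050 to -0.81, so that 4 of the 5 were highest in library 1, against 45.6% of all tested. For miR-484 the same ratio was 4.31, and 3.45 with TMM factors. With TMM factors miR-877-5p had log2 ratios of 0.53 to library 2 and 0.88 to library 3, so its lead was below 2-fold. MiR-484 and miR-877-3p stayed over 2-fold above both.

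**Figure D3:**
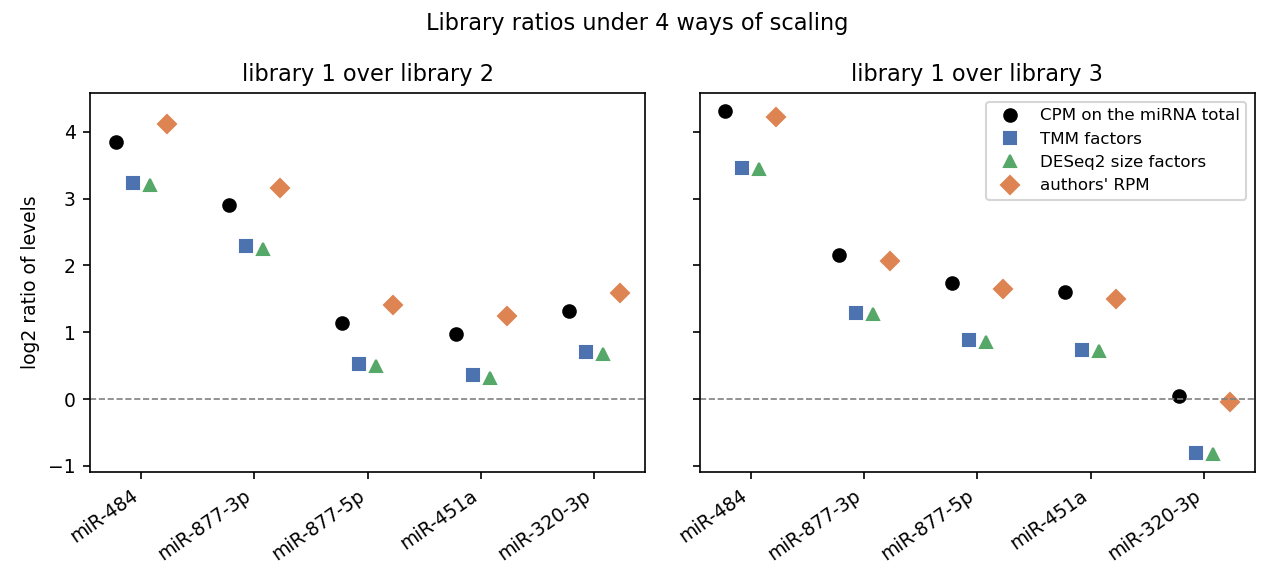
Log2 ratio of library 1 to library 2 (left) and to library 3 (right) for the 5 tested miRNAs, scaled to the miRNA total, by TMM factors, by DESeq2 size factors or as the authors' RPM. All ratios lie above 0 except those of miR-320-3p against library 3 with TMM factors, DESeq2 size factors or the authors' RPM. On the miRNA total that ratio of miR-320-3p lay at 0.050.

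Base composition moved with the library 1 ratio over all miRNAs. Of the 353 tested, 320 had a RefSeq sequence, and for these the level in library 1 was set against the mean of libraries 2 and 3 as log2(CPM + 1). The median log2 ratio was -0.079 in 57 miRNAs with less than 40% G and C, 0.20 in 108 with 40 to 50%, 1.05 in 107 with 50 to 60% and 1.48 in 48 with 60% or more. Across these 320 miRNAs, which share 3 libraries and are not replicates, Pearson's r was 0.38 and Spearman's rho 0.37, while for library 2 against library 3 they were -0.14 and -0.14.

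Those of the listed noncanonical miRNAs that were among these 320 ran from 36.4% to 65.0% G and C. MiR-320-3p, with a log2 ratio of 0.55, was not among them because it had no RefSeq sequence. MiR-702-5p and miR-702-3p have a sequence, but their summed counts of 5 and 22 were below the minimum of 30. MiR-484 has 63.6% G and C and a log2 ratio of 4.06, above the upper quartile of 2.00 of its GC range, and 1 of the 320 miRNAs, miR-2137, had a larger one. MiR-877-5p, with 65.0% G and C, had 1.32, and 28 of the 48 miRNAs in its range had more. MiR-877-3p, with 59.1%, had 2.32 against a median of 1.05 in its range. MiR-451a, with 36.4%, had 1.19 against a median of -0.079, and 12 of the 57 in its range had more. Outside the list, the reported mirtron miR-1981-5p, with 58.3%, had a log2 ratio of -0.54. For miR-7091, whose hairpin also fills an intron, the log2 ratio was -1.91 on the 3p arm and 0.90 on the 5p arm. The part of base composition in these library differences was not tested.

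**Figure D4:**
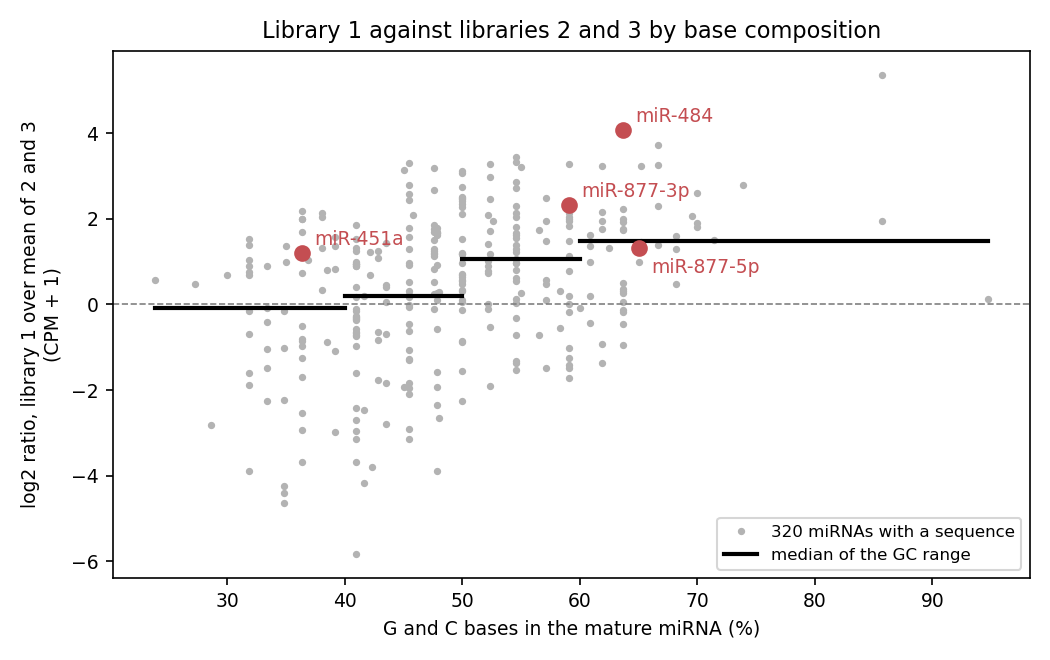
Log2 ratio of library 1 to the mean of libraries 2 and 3 (CPM + 1) against the share of G and C bases in the mature miRNA, for 320 miRNAs. Black bars mark the median of 4 GC ranges. Red points mark those of the listed noncanonical miRNAs that are among the 320, and other mirtrons are not marked. The medians go from -0.079 below 40% to 1.48 at 60% or more, and miR-484 lies at 4.06.

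The miRNAs with the most similar profile were found by the root mean square difference of log2(CPM + 1), each centred on its mean over the 3 libraries, among 132 others with a mean of at least 100 CPM. With 3 libraries many profiles are alike, and the likeness is a description. Nearest to miR-320-3p were miR-361-3p, miR-10a-5p and miR-151-3p, at differences of 0.22, 0.24 and 0.25. Nearest to miR-484 was miR-1957a, at 329, 12.9 and 15.6 CPM and a difference of 0.34, followed by miR-326-3p and miR-1198-5p. For miR-877-3p it was miR-1964-3p, at 363, 63.1 and 91.6 CPM and a difference of 0.073. MiR-27a-3p, at 27905, 14591 and 10194 CPM, was nearest both to miR-451a, at 0.029, and to miR-877-5p, at 0.070.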

How the data were processed

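Small RNA of 3 exosome libraries was ligated to adapters, amplified, size-selected and sequenced as single reads of 50 bases, per the labels' protocols. BWA, bcl2fastq and mm10 are named in the submitters' processing notes; of trimming, mismatches, the miRNA release and multi-mapping no detail is given in the sources used here. Each deposited table gives, per miRNA, a whole-number count, the unit of all tests, and an RPM value whose denominators, worked out from the deposited columns, were 14047692, 13995845 and 14002577. Counts were scaled to each library's miRNA total.

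The libraries were compared by chi-square (R 4.3.3, summed count of at least 30). Arms were compared with edgeR 4.0.16 (glmQLFit, library and arm as terms, summed count of at least 60, 749 precursors listed). Both were checked on simulated counts. Those for chi-square varied by counting error alone, apart from set changes in library 1. They therefore do not show how that test behaves where libraries differ more widely, as here. Folds were predicted with RNAfold 2.7.2. Alternatives were TMM, DESeq2 1.42.0, RPM, other filters and leaving out libraries. All 8 members are named, with the lists' members, the 3 nearest profiles and miRNAs that share a seed. Members and lists were chosen with earlier results of these data known. The GC ranges and the intron match were chosen after seeing the files.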

Additional observations from a re-analysis of the deposited data

How the results depend on the processing

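In all, 45 results were recomputed under their alternatives. Means were judged against the SD over the 3 libraries, which library 1 itself widens, so large moves can stay within it: without library 1 the mean of miR-484 went from 1958 to 313 CPM, and the mean ratio of miR-484 to miR-320-3p from 1.05 to 0.288. The number of miRNAs that differed among libraries was 318, and 177 to 284 when 1 library was left out, the lowest without library 1, when fewer miRNAs were tested. Leaving out 1 library gave 48 to 58 precursors with more 3p and 51 to 64 with more 5p, against 61 and 65. Without a replicate block (library not a term) these were 60 and 66, and the log2 arm ratio of miR-877 was 0.33. That ratio was -0.35 to 0.50 when 1 library was left out and passed the threshold in none of these fits. The log2 ratio of library 1 to 3 for miR-320-3p reversed, to -0.81 with TMM factors, -0.83 with DESeq2 size factors and -0.047 with the authors' RPM. MiR-451a averaged 4.30 in the authors' RPM, whose denominators are larger than the miRNA totals. The red-cell list averaged 67.4 CPM, and 44.7 with the identical miR-486 counts once, an alternative chosen after seeing the data. Depth limits miR-702, whose arms had 0 to 14 counts a library.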

Other observations

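Hairpins that fill a short intron could be found from the annotation alone. Of the hairpins with both arms in RefSeq and any arm in the tables, 16 had arms that began and ended within 2 bases of the ends of a GENCODE intron on the same strand. Of these, 10 had a count in any library (62.5%) and 4 a summed count of at least 30 (25.0%), whereas of 642 other hairpins 68.8% had a count and 32.1% reached 30. The median summed count was 1 in the intron-filling hairpins and 5 in the others. MiR-1981, in an 82-base intron of Marc2, led the group with 573, 337 and 1346 counts on both arms in libraries 1, 2 and 3. MiR-877 came next with 189, 40 and 51, and then miR-7091, in a 79-base intron of Dnase1l1, with 31, 44 and 69 counts. MiR-7068, in an intron of Cherp, had 18, 8 and 13 counts, and miR-702 followed with 18, 2 and 7. MiR-877, miR-7068 and miR-702 had their most counts in library 1, as had miR-7070 with 12, 1 and 2 counts, and miR-1981 and miR-7091 had theirs in library 3. The comparison was made after seeing the data and was not tested.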
